A study of Mus musculus with 12 samples.

Results

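The 10 genes described here make and load MHC class I molecules: the chains H2-K1, H2-D1, H2-T3 and B2m, the peptide transport and loading genes Tap1, Tap2 and Tapbp, the immunoproteasome subunits Psmb8 and Psmb9, and Nlrc5, whose product activates transcription of class I genes. They were chosen by gene name, with earlier results of these data known, from a table of 44205 genes measured by RNA sequencing of mouse ileum. All 10 of 10 were expressed highly enough for testing, among 17662 such genes. Levels are RPKM, read numbers scaled to exon length and library size. For the fits they were scaled again between libraries, by factors of 0.908 to 1.096. The 12 libraries came from 12 C57BL/6 mice aged 16 weeks after 10 weeks on their diet, with 3 mice in each of 4 groups. The groups were a high-fat diet with a sugar drink (HF_Sugar, the Western diet), the high-fat diet with plain water (HF), a normal-fat diet with the sugar drink (NF_Sugar), and the normal-fat diet with plain water (NF, the normal diet). The high-fat pellets carried 60% of the energy as fat and the drink, sucrose by the methods of the study, 23% sugar (w/v). The study used mice of both sexes and the labels do not give the sex of a library. Each library was 1 mouse, no animals were pooled, and the tissue was the whole ileum rather than isolated epithelium.

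In most cells, proteasomes cut proteins to peptides, and under interferon-γ the subunits encoded by Psmb8 and Psmb9 replace 2 catalytic subunits of the constitutive particle, encoded by Psmb5 and Psmb6. The pump formed by TAP1 and TAP2 carries the peptides into the endoplasmic reticulum, where tapasin (Tapbp) holds it next to empty class I chains. A heavy chain (H2-K1 and H2-D1 encode the classical ones of this strain) joined to β2-microglobulin (B2m) then carries the peptide to the surface for CD8 T cells. H2-T3 encodes the thymus leukemia antigen, a non-classical class I chain of the mouse that presents no peptide, is made by intestinal epithelium and binds the CD8αα of intraepithelial lymphocytes. NLRC5 has no DNA-binding domain of its own and acts on class I promoters through the RFX, CREB/ATF and NF-Y factors bound to their S, X and Y boxes.

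The promoter windows of these genes, taken from RefSeq (build GRCm38.p6, 250 bases before the annotated start), are shown because NLRC5 and interferon act there. A window was given for 8 of 10 members, Tap2 and Nlrc5 being without one. In the sequences that follow, written 5′ to 3′ on the strand of the gene, capitals mark matches to GAAA and GAAA with any 2 bases between them (interferon-stimulated response element), GAANTGAAA (the interferon consensus sequence of class I genes), TTCNNNGAA (gamma-activated site), ATTGG (inverted CCAAT box, the Y box letters) and TGACG (the core of the X2 box), each searched on both strands. H2-K1, B2m and H2-T3 are given from base -160 to base -11 of the start, and H2-D1 and Tap1 over 30 bases around TGACG.
H2-K1, chr17:34000358-34000507, minus strand: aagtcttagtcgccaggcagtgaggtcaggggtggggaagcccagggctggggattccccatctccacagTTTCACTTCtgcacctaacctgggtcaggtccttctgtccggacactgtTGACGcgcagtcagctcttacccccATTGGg
H2-D1, chr17:35262993-35263022, plus strand: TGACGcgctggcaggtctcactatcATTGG
B2m, chr2:122147527-122147676, plus strand: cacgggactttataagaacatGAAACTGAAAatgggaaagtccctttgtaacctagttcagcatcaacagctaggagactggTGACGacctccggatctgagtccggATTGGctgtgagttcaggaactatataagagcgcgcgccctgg
H2-T3, chr17:36190162-36190311, minus strand: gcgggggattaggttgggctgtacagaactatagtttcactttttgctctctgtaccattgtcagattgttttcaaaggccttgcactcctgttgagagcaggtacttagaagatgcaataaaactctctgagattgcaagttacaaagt
Tap1, chr17:34187468-34187497, plus strand: ggTGACGacagagggtcctgccctcaatct

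H2-K1, H2-D1 and B2m all held TGACG followed by ATTGG with 20 bases between them. That spacing, looked for after the sequences had been read, occurred in 30 of 32851 promoter windows (0.0913%), from 26 genes, and the only other gene of the lists used here that had it was H2-M3, a non-classical class I chain. Alone, TGACG was in 17.8% and ATTGG in 33.85% of all windows. H2-K1 and H2-D1 also held GAANTGAAA, present in 1.501% of all windows, and B2m held the interferon-stimulated response element, present in 2.98%. The H2-T3 window matched none of the 5 patterns. Psmb8 matched TTCNNNGAA only (7.02% of all windows) and Tapbp matched ATTGG only, at 2 places. Tap1 and Psmb9 start head to head, with 225 bases between their starts, so that their windows shared 275 bases (chromosome 17, 34187306 to 34187580) and the same TGACG. A match describes letters in a window and not a site in use.

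The class I genes differed widely in level. In NF ileum, B2m averaged 939 ± 276 RPKM (SD, n = 3), H2-K1 568 ± 75.4, H2-D1 371 ± 66.6, Tapbp 61.1 ± 4.94 and H2-T3 51.6 ± 2.89. Below these came Psmb8 at 27.1 ± 13.2 RPKM, Psmb9 at 15.8 ± 7.85, Tap1 at 11.8 ± 6.27, Tap2 at 11.8 ± 3.39 and Nlrc5 at 0.700 ± 0.358. Of neighbours in this order, B2m and H2-K1 overlapped over the 3 NF libraries, as did each neighbouring pair from Psmb8 to Tap2, and the other neighbours did not overlap. HF_Sugar, HF and NF_Sugar ileum kept the 3 classical chain genes on top and Nlrc5 at the bottom. Over the 12 libraries Nlrc5 varied most, at 6.03-fold, followed by Tap1 at 4.46-fold, Psmb8 at 4.31-fold and Psmb9 at 3.42-fold. Tap2, of a level like that of Tap1, spanned 2.08-fold, and B2m, the highest member, 2.01-fold. H2-T3 spanned 1.75-fold, H2-K1 1.71-fold, H2-D1 1.56-fold and Tapbp 1.44-fold.

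**Figure D1:**
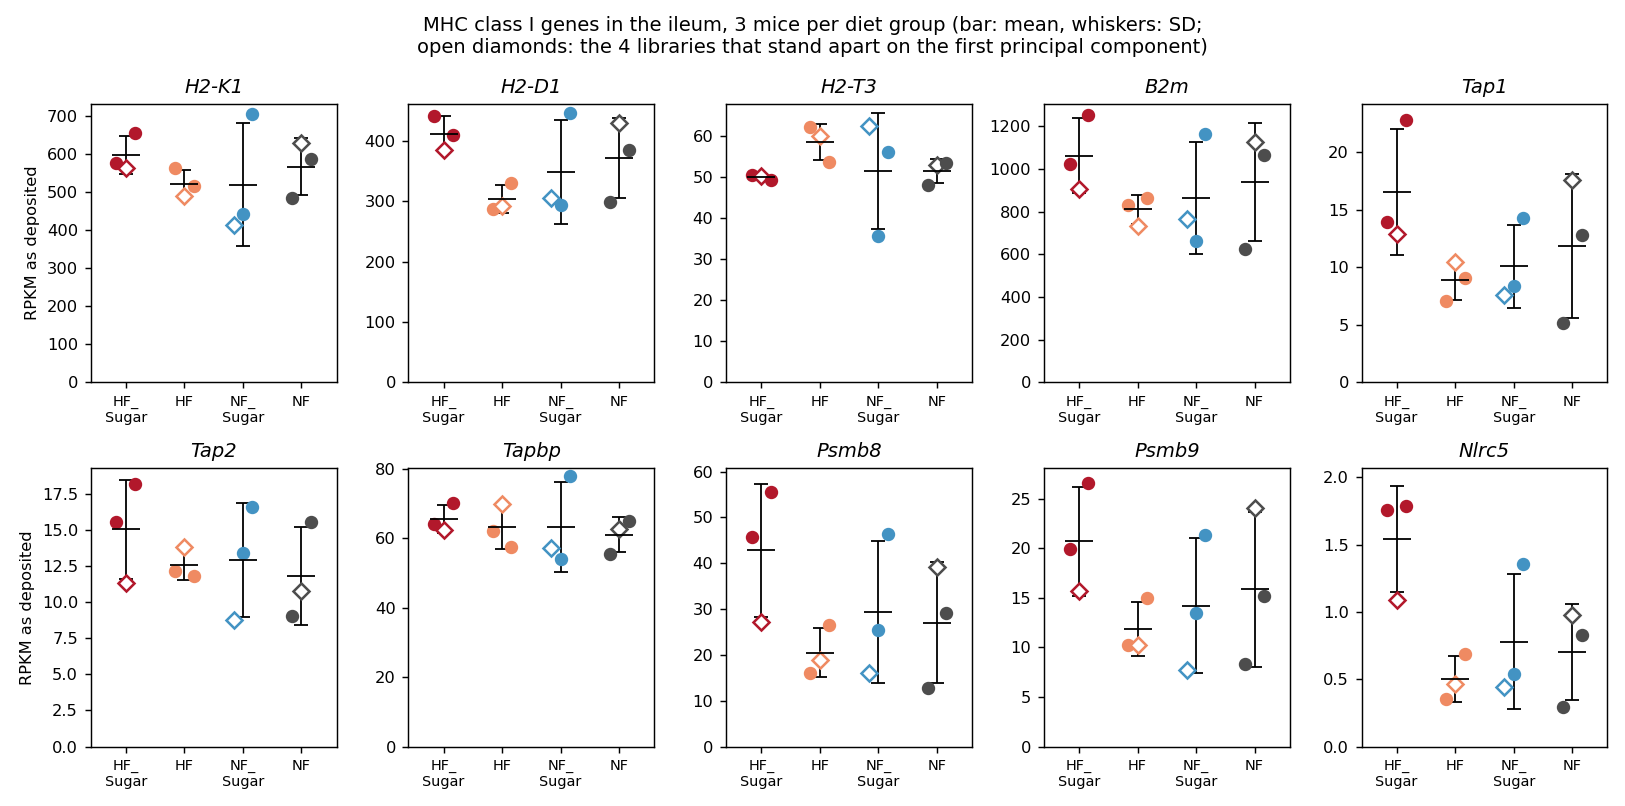
RPKM as deposited (vertical axes, from 0) of the 10 class I genes in the 12 ileum libraries, by diet group (horizontal axis). Points are mice, bars are means and whiskers are SD (n = 3), and open diamonds are the 4 libraries that stand apart from the others. Nlrc5 lies between 1.09 and 1.79 RPKM in the 3 HF_Sugar libraries, above all HF and NF libraries, whereas H2-T3 lies between 49.3 and 50.6 RPKM there.

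The libraries held 15.3 to 39.0 M reads, as recovered from the spacing of low RPKM values, and 73.3% to 81.4% of these fell in genes. The deepest was NF replicate 1, followed by NF replicate 2 at 27.5 M reads, and the part of depth in the class I values was not tested. On the first principal component (41.1% of the variance) 4 libraries stood apart, 1 per group: replicate 2 of HF_Sugar, HF and NF, and replicate 1 of NF_Sugar. The ileal markers Fabp6 (the bile acid binding protein of the ileum, at least 2415 RPKM) and Slc10a2 (the ileal bile acid transporter, at least 64.4 RPKM) were high in every library. RNA of a whole tissue cannot tell fewer cells of a type from less RNA per cell.

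The first comparison asked which class I genes differed after fat and sugar together. Values of 9 of 10 members were higher and that of H2-T3 lower in HF_Sugar than in NF, but no member passed, and only Nlrc5 separated the groups. Nlrc5 stood at 1.76, 1.09 and 1.79 RPKM in HF_Sugar replicates 1 to 3, from 336, 254 and 247 reads, against 0.296, 0.976 and 0.829 RPKM in NF replicates 1 to 3, from 98, 228 and 170 reads. The groups did not overlap, with the closest pair at 1.09 and 0.976 RPKM. The ratio of the means was 2.21, and the difference on the scaled log2(RPKM + 1) scale, which shrinks the change of so low a gene, was 0.57 ± 0.21 (SE). The limma adjusted p was 0.961, and the exact permutation test (two-sided) gave 0.1, the smallest p that 3 against 3 libraries allow.

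Psmb8, which encodes the chymotrypsin-like subunit β5i, had 45.8, 27.1 and 55.5 RPKM in HF_Sugar against 12.9, 39.1 and 29.2 RPKM in NF libraries. The groups overlapped, since HF_Sugar replicate 2 lay below 2 NF libraries (log2 difference 0.66 ± 0.44, limma adjusted p = 0.961). Psmb9, the subunit β1i, had 19.96, 15.6 and 26.5 RPKM in HF_Sugar against 8.34, 24.005 and 15.2 RPKM in NF, again with overlap (0.40 ± 0.39). For Tap1 the values were 13.9, 12.9 and 22.8 RPKM in HF_Sugar against 5.11, 17.6 and 12.8 RPKM in NF (0.50 ± 0.38). NF replicate 1 was the lowest of all 12 libraries for Tap1, Psmb8, B2m and Nlrc5, and NF replicate 2 was above at least 1 HF_Sugar library for all 3 genes of this paragraph.

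Tap2, the partner of Tap1 in the peptide pump, had 15.6, 11.4 and 18.2 RPKM in HF_Sugar against 9.02, 10.8 and 15.6 RPKM in NF (0.29 ± 0.22). B2m had 1026, 907 and 1254 RPKM in HF_Sugar against 623, 1129 and 1066 RPKM in NF (0.16 ± 0.26), a spread among the NF mice wider than the difference. H2-D1 (0.11 ± 0.20), H2-K1 (0.03 ± 0.21) and Tapbp (0.05 ± 0.16) differed by less than their SE, as did H2-T3 (-0.09 ± 0.20). The median over the 10 members was 0.22, against -0.01 over all genes tested. It came to 0.03 without NF replicate 1 and to 0.44 without the 4 libraries that stand apart.

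In HF_Sugar against NF, limma called 0 of 17662 genes at an adjusted p under 0.05 (0%), 781 had an unadjusted p under 0.05 (4.42%), and 0 were called by limma-voom run on recovered reads. Nlrc5 was the only member among the 781. Complete separation upward was found for 1 of 10 members, a share close to the 7.21% found over all genes tested, and downward for 0 members, against 2.97%. Without the 4 libraries that stand apart, 6 of 10 members lay above NF, where 20.6% of all genes did with 2 libraries a group, and Nlrc5, Psmb8 and Tap1 differed by log2 0.84, 1.30 and 1.01. Without NF replicate 1, the lowest NF library, the log2 differences were smaller, at 0.39 for Nlrc5, 0.25 for Psmb8, 0.15 for Tap2, 0.063 for Tap1 and 0.052 for Psmb9. Without NF replicate 2 they were larger, at 0.72 for Nlrc5, 1.04 for Psmb8, 0.89 for Tap1 and 0.79 for Psmb9. Without HF_Sugar replicate 3 they were 0.30 for Tap1, 0.25 for Psmb9 and 0.18 for Tap2, and without HF_Sugar replicate 2 that of Tap2 was 0.44.

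**Figure D2:**
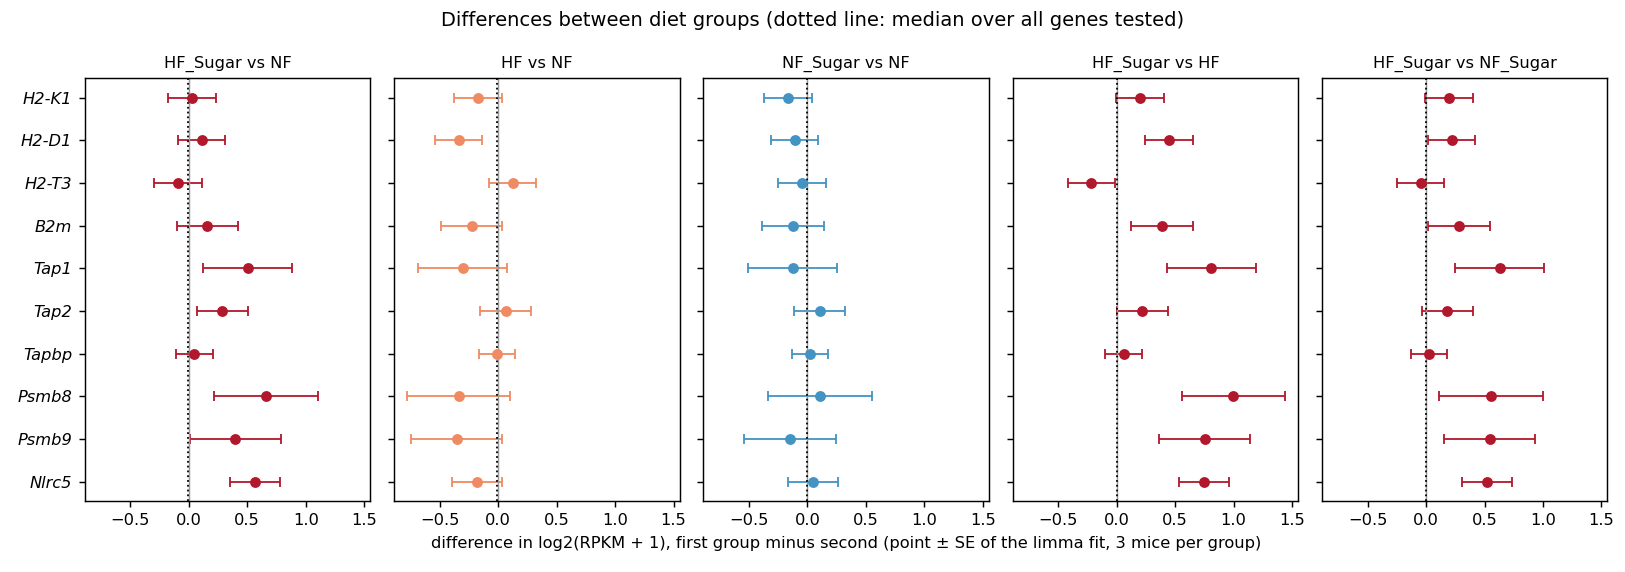
Difference between diet groups in scaled log2(RPKM + 1) (horizontal axes, first-named group minus second) for the 10 class I genes (vertical axis), as point and SE of the limma fit (3 mice per group). The dotted line is the median over all 17662 genes tested, at -0.01 to 0.01. Psmb8, Tap1, Psmb9 and Nlrc5 have the highest points in HF_Sugar against HF, at 0.75 to 0.998, and no point passed the adjusted threshold.

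The sharpest separation was between mice with and without the sugar drink on the high-fat diet. In HF_Sugar against HF, 7 of 10 members had all 3 libraries above all 3 HF libraries (H2-K1, H2-D1, B2m, Tap1, Psmb8, Psmb9 and Nlrc5), where 4.69% of all genes tested did, and H2-T3 had all 3 below, as did 5.15% of all genes. Tap2 and Tapbp overlapped. Separation here was not particular to class I, since 6 of 7 MHC class II genes also had all 3 HF_Sugar libraries above all 3 HF libraries. No member passed the adjusted threshold, all adjusted p being 0.9997 in limma. These members go up and down together between mice, so 7 genes are not 7 separate observations. Since the members were chosen with earlier results known, the shares over all genes are given for description only. After scaling the counts were again 7 and 1, and without the 4 libraries that stand apart the counts were 9 above and 1 below, with 19.9% and 18.5% of all genes.

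Nlrc5 had 1.76, 1.09 and 1.79 RPKM in HF_Sugar against 0.350, 0.463 and 0.687 RPKM in HF libraries, from 71, 85 and 118 reads there. The ratio of means was 3.09 and the log2 difference 0.75 ± 0.21. Psmb8 stood at 45.8, 27.1 and 55.5 RPKM in HF_Sugar against 16.1, 18.9 and 26.5 RPKM in HF, a ratio of 2.09 (0.998 ± 0.44). The lowest HF_Sugar library and the highest HF library were nearly level for this gene, at 27.1 and 26.5 RPKM. Tap1 had 13.9, 12.9 and 22.8 RPKM in HF_Sugar against 7.02, 10.4 and 9.10 RPKM in HF (ratio 1.87, 0.81 ± 0.38). Psmb9 had 19.96, 15.6 and 26.5 RPKM in HF_Sugar against 10.3, 10.2 and 15.0 RPKM in HF (ratio 1.75, 0.75 ± 0.39).

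The chain genes showed smaller steps. H2-D1 had 442, 385 and 411 RPKM in HF_Sugar against 287, 293 and 330.1 RPKM in HF libraries, with a clear gap between the groups (ratio 1.36, log2 0.45 ± 0.20). H2-K1 had 577, 565 and 657 RPKM in HF_Sugar against 563, 490.1 and 517 RPKM in HF (ratio 1.15, 0.20 ± 0.21), with HF replicate 1 just under HF_Sugar replicate 2. B2m had 1026, 907 and 1254 RPKM in HF_Sugar against 833, 732 and 866 RPKM in HF (ratio 1.31, 0.39 ± 0.26). H2-T3, the epithelial non-classical chain, went the other way, at 50.6, 50.4 and 49.3 RPKM in HF_Sugar against 62.2, 60.0 and 53.8 RPKM in HF (ratio 0.853, -0.22 ± 0.20). For H2-K1, H2-D1, H2-T3, B2m, Tap1, Psmb8, Psmb9 and Nlrc5 the exact permutation test gave 0.1, its smallest possible p.

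The median over the 10 members was 0.42 in HF_Sugar against HF, with 0.01 over all genes tested, and stayed between 0.37 and 0.47 when any 1 library was left out. Of all genes, limma called 1 here (0.00566%), Il1b, the gene of interleukin-1β and no class I gene (adjusted p = 0.0362), and limma-voom called 0. The count was 1 without NF_Sugar replicate 1, 2 without NF_Sugar replicate 3, and 0 without any other single library. An unadjusted p under 0.05 was found for 787 genes and for 3 members, Nlrc5, Psmb8 and H2-D1.

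On the normal-fat diet, mice with and without the sugar drink were not separated by any member. In NF_Sugar against NF all 10 members overlapped, 4 values were higher and 6 lower, and the median was -0.08, against -0.01 over all genes tested. Nlrc5 had 0.441, 0.542 and 1.36 RPKM in NF_Sugar against 0.296, 0.976 and 0.829 RPKM in NF (0.05 ± 0.21). NF_Sugar replicate 3 was in a place of its own, with Psmb8 at 46.3 RPKM, against 16.1 and 25.5 RPKM in the other NF_Sugar mice, and with the highest H2-K1, H2-D1 and Tapbp of all 12 libraries (706, 448 and 78.0 RPKM). H2-T3 had its highest and its lowest value of the study in NF_Sugar replicates 1 and 2, at 62.6 and 35.7 RPKM. Groups were separated upward for 3.22% and downward for 2.64% of all genes, and for 0 members. Limma and limma-voom each called 0 genes (0%), and 327 genes and 0 members had an unadjusted p under 0.05. The sign of the median depended on single mice: it was -0.27 without NF_Sugar replicate 3, 0.10 without NF replicate 2, and 0.22 without the 4 libraries that stand apart.

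Most values were lower with fat alone, and none passed. In HF against NF, 8 of 10 members were lower on the scaled log2 scale, Tapbp being higher as deposited, with a median of -0.21 against -0.01 over all genes tested. H2-D1 had 287, 293 and 330.1 RPKM in HF against 299, 430 and 385 RPKM in NF (-0.34 ± 0.20), Psmb9 10.3, 10.2 and 15.0 RPKM in HF against 8.34, 24.005 and 15.2 RPKM in NF (-0.36 ± 0.39), and Nlrc5 0.350, 0.463 and 0.687 RPKM in HF against 0.296, 0.976 and 0.829 RPKM in NF (-0.18 ± 0.21). The ranges overlapped for 9 of 10 members. H2-T3 alone separated, upward, at 62.2, 60.0 and 53.8 RPKM in HF against 48.2, 53.0 and 53.5 RPKM in NF (0.12 ± 0.20), and it overlapped after scaling. Separation upward was found for 5.37% and downward for 2.97% of all genes, and downward for 0 members. Limma and limma-voom each called 0 genes (0%), 665 genes and 0 members had an unadjusted p under 0.05. The median of the members was -0.41 without NF replicate 1 and 0.04 without NF replicate 2.

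Among mice with the sugar drink, values in HF_Sugar against NF_Sugar were higher for 9 of 10 members, none of which passed, with a median of 0.25 and -0.0033 over all genes tested. Nlrc5 differed by 0.52 ± 0.21 (limma adjusted p = 1), Tap1 by 0.63 ± 0.38, Psmb8 by 0.55 ± 0.44 and Psmb9 by 0.55 ± 0.39. All 10 members overlapped, and NF_Sugar replicate 3 reached into the range of the HF_Sugar libraries, at 1.36 RPKM for Nlrc5 against 0.441 and 0.542 RPKM in the other NF_Sugar mice. Over all genes 4.29% separated upward and 1.64% downward. Limma and limma-voom each called 0 genes (0%), and 305 genes, with Nlrc5 as the only member, had an unadjusted p under 0.05. Comparisons that share a group, such as the 3 against NF and the 3 that hold HF_Sugar, are not independent of each other.

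The interaction term asked whether the sugar drink differed in its association with class I genes between diets. It was positive for 9 of 10 members, with a median of 0.53 against 0.01 over all genes tested, and 0.70 ± 0.30 for Nlrc5 (limma adjusted p = 0.9997), 0.93 ± 0.54 for Tap1, 0.90 ± 0.55 for Psmb9, 0.89 ± 0.63 for Psmb8 and 0.56 ± 0.29 for H2-D1. None passed, so a different association on the 2 diets was not shown. Pooled over diets, Nlrc5 averaged 1.16 ± 0.581 RPKM with the sugar drink and 0.6001 ± 0.274 RPKM with water (SD, n = 6 each), an exact permutation p of 0.0671 and a limma adjusted p of 0.998. Pooled over drinks, it averaged 1.02 ± 0.633 RPKM on high fat and 0.740 ± 0.393 RPKM on normal fat (n = 6 each, exact permutation p = 0.366). For the interaction, pooled fat, pooled sugar and the F test over the 4 groups, limma called 0 genes each (0%), with 458, 466, 649 and 418 at an unadjusted p under 0.05, and limma-voom called 0.

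Levels of Nlrc5 were then set against those of the 9 other members over the 12 mice, in 9 relations on the scaled log2(RPKM + 1) scale with permutation p adjusted over the 9. The share of all genes tested that follow Nlrc5 as closely was not counted. The relations are therefore not shown to be particular to the members. Psmb8 followed Nlrc5 most closely (Pearson r = 0.947, Spearman rho = 0.979, each with p = 1e-05, the smallest that 100000 resamples can give, adjusted p = 9e-05). Next were Psmb9 (r = 0.886, rho = 0.860, permutation p = 0.00019 and 0.00056, adjusted 0.000855 and 0.00168) and Tap1 (r = 0.872, rho = 0.888, permutation p = 0.0003 and 0.00028, adjusted 0.0009 and 0.00126). H2-D1 followed with r = 0.851 and rho = 0.839 (permutation p = 0.00065 and 0.00104, adjusted 0.00146 and 0.00234), and B2m with r = 0.831 and rho = 0.832 (0.00125 and 0.00138, adjusted 0.00225 and 0.00248). Tap2 and H2-K1 were looser, at r = 0.706 and 0.690 and rho = 0.622 and 0.692, with adjusted permutation p of 0.0168 for both r and of 0.0442 and 0.0215 for rho.

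Tapbp did not pass over the 12 libraries (r = 0.503, rho = 0.462, permutation p = 0.0946 and 0.132, adjusted 0.106 and 0.149), and H2-T3 had no such relation (r = -0.196, rho = -0.406, permutation p = 0.558 and 0.193). Without HF_Sugar replicates 1 and 3, the libraries farthest from the median of Nlrc5, r was 0.931 for Psmb8, 0.897 for H2-D1, 0.886 for Psmb9, 0.880 for Tap1, 0.844 for B2m, 0.754 for H2-K1, 0.588 for Tapbp, 0.519 for Tap2 and -0.034 for H2-T3. In the 8 libraries that do not stand apart, r was 0.968 for Psmb8 (exact permutation p = 0.000322), 0.956 for Psmb9 and 0.932 for Tap1. There H2-K1 no longer passed, with r = 0.665 and rho = 0.643 (exact permutation p = 0.0705 and 0.0962, adjusted 0.0837 and 0.108).

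Most of these relations were also found among mice of the same diet. After the group means had been taken off, r was 0.968 for Psmb8, 0.910 for Psmb9, 0.883 for B2m, 0.880 for H2-D1, 0.839 for Tap1, 0.787 for H2-K1, 0.716 for Tap2 and 0.607 for Tapbp, and 0.084 for H2-T3. All but H2-T3 passed there by r, at adjusted permutation p of 0.0406 or less, and Tapbp did not by rho (rho = 0.511, adjusted permutation p = 0.107). All p of this setting are too small, because deviations within a group are not free. Passing there is therefore a description only. Among all 36 pairs of the 9 members other than H2-T3, r ran between 0.399 and 0.964 with a median of 0.774. H2-T3 had r between -0.385 and 0.445 with the other 9. The points are libraries of whole ileum, so that each pair shares the library and its mix of cells.

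**Figure D3:**
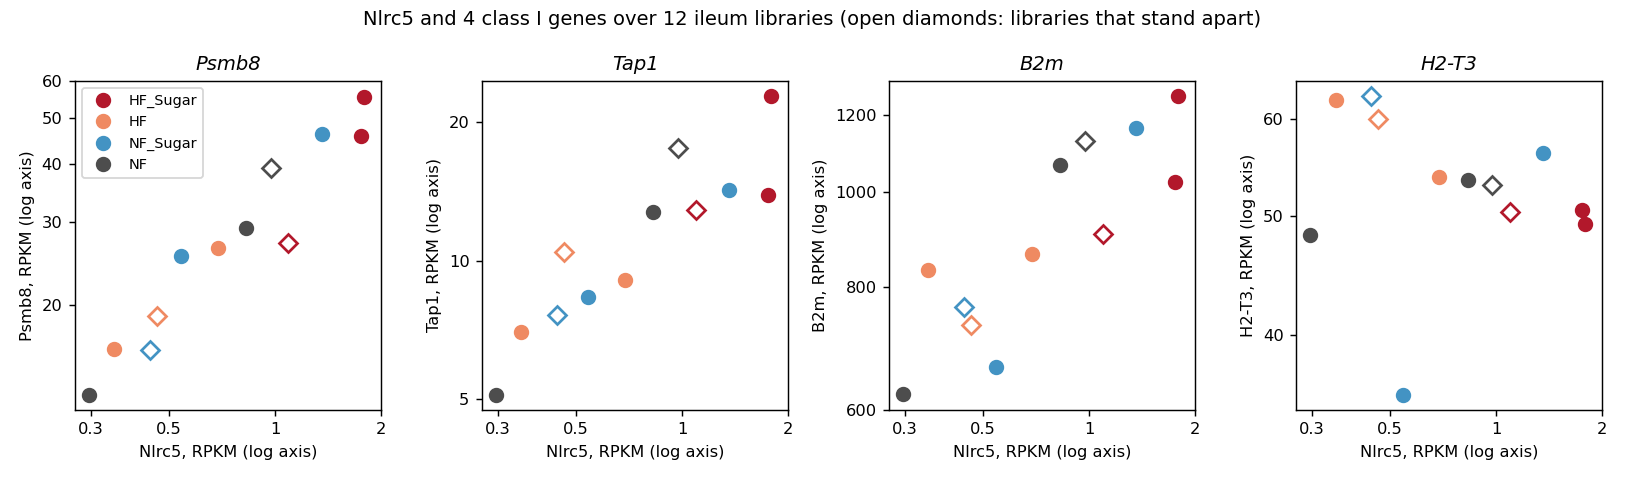
RPKM of Psmb8, Tap1, B2m and H2-T3 (vertical log axes) against Nlrc5 (horizontal log axis) in 12 ileum libraries, 1 point per mouse and 1 color per diet group, with open diamonds for the 4 libraries that stand apart. Psmb8 follows Nlrc5 over the whole range, between 12.9 and 55.5 RPKM (r = 0.947 on the log2 scale), and H2-T3 does not (r = -0.196).

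Psmb8 and Psmb9 varied against their constitutive counterparts more than Psmb10 did. Within a library, which no scaling enters, the ratio of Psmb8 to its constitutive counterpart Psmb5 was 0.372, 0.499 and 0.732 in HF_Sugar, 0.196, 0.418 and 0.415 in HF, 0.320, 0.270 and 0.645 in NF_Sugar, and 0.184, 0.630 and 0.512 in NF libraries. It differed 3.98-fold between the extremes, and all 5 pairs of groups overlapped. The ratio of Psmb9 to Psmb6 was 0.485, 0.690 and 0.824 in HF_Sugar against 0.243, 0.427 and 0.415 in HF libraries, which did not overlap (exact permutation p = 0.1), and reached its highest value, 0.936, in NF replicate 2. Psmb10, the third inducible subunit (β2i) and no member, behaved otherwise: it stood 5.57 to 9.44 times above Psmb7, and its level of 106, 48.6 and 88.6 RPKM in HF_Sugar, against 62.3, 60.3 and 120 RPKM in NF, gave a log2 difference of -0.05 ± 0.36. The summed RPKM of the 14 constitutive subunits listed was 269 to 373 in the 4 libraries that stand apart and 431 to 542 in the other 8, and the part of this split in the ratios was not tested.

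**Figure D4:**
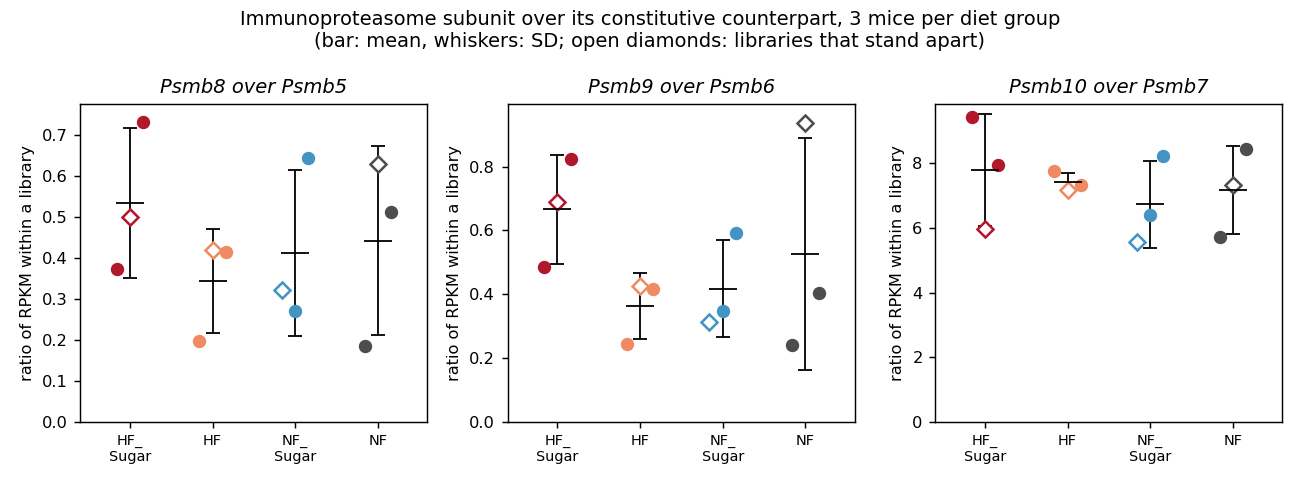
Ratio of RPKM within a library (vertical axes, from 0) of Psmb8 to Psmb5, Psmb9 to Psmb6 and Psmb10 to Psmb7, by diet group (horizontal axis). Points are mice, bars are means and whiskers are SD (n = 3), and open diamonds are the 4 libraries that stand apart. The ratio of Psmb9 to Psmb6 is 0.485 to 0.824 in HF_Sugar and 0.243 to 0.427 in HF, while the NF libraries spread from 0.240 to 0.936.

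Genes next to the members in the pathway were counted by lists, with no list tested as a whole, and higher and lower refer in these counts to the sign of the scaled log2 difference. Of 17 other class I and class I-like chains, 16 could be tested, 0 passed in HF_Sugar against NF, and 10 values were higher and 6 lower (median 0.04). The smallest p there had H2-Q4 (0.36 ± 0.30), H2-Q7 (0.30 ± 0.28), both Qa chains, and H2-T10 (0.20 ± 0.20). Of 7 other loading and trimming genes 0 passed, with 3 higher and 4 lower, Calr and Pdia3 among the lower at -0.0022 and -0.026 although their mean RPKM were slightly higher in HF_Sugar. They were led by Lnpep, an endosomal peptide-trimming aminopeptidase (0.34 ± 0.14), Tapbpl, the peptide editor TAPBPR (0.38 ± 0.20), and Erap1, which trims peptides in the endoplasmic reticulum (0.19 ± 0.12). Psme1 and Psme2, the PA28 cap subunits, differed by -0.15 ± 0.29 and -0.05 ± 0.59, so that with Psmb10 3 of 3 log2 differences were below 0, each by less than its SE, while the mean RPKM of Psmb10 was 81.2 in HF_Sugar and 81.04 in NF. Of the 14 constitutive subunits 0 passed and 11 were lower (median -0.10), led by Psma4 (-0.19 ± 0.14), Psmb3 (-0.29 ± 0.24) and Psmb4 (-0.19 ± 0.16).

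Of 15 factors of the class I enhanceosome and of interferon signaling, 0 passed, 12 values were higher and 3 lower in HF_Sugar than in NF (median 0.16). Irf8, an interferon regulatory factor of myeloid and B cells, had 19.5, 13.9 and 22.9 RPKM in HF_Sugar against 8.98, 13.0 and 12.51 RPKM in NF, with no overlap (0.60 ± 0.19, limma adjusted p = 0.961). Rfx5, the RFX subunit that binds the X box, also separated, at 1.63, 1.91 and 2.40 RPKM in HF_Sugar against 0.850, 1.501 and 1.48 RPKM in NF (0.36 ± 0.14). Nfyb, an NF-Y subunit, separated downward (-0.34 ± 0.12). Ifng, the gene of interferon-γ, had 0.773, 0.528 and 0.732 RPKM in HF_Sugar against 0.0123, 0 and 0.149 RPKM in NF (0.67 ± 0.10, limma adjusted p = 0.212). It reached the 0.5 RPKM of the filter only in the 3 HF_Sugar libraries, with at most 0.191 RPKM in any other. Ifng thus entered the test only through the group where it is high, and its difference is a description only. Turned back into reads, the Ifng values were 22.5, 18.7 and 15.4 in HF_Sugar against 0.623, 0 and 4.66 in NF, with fractions that a count cannot give. Nlrc5 gave reads within 0.05 of a whole number in all 12 libraries, but fractions were not particular to Ifng. In HF_Sugar replicate 1, Tap1 gave 1714.7 and Psmb8 3490.57 reads, and the cause of the fractions was not tested. The receptor genes Ifngr1 and Ifngr2 differed by -0.22 each (SE 0.15 and 0.13), and 7 of the 10 interferon and receptor genes could be tested, with 0 passing.

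Levels of MHC class II genes differed between the libraries in much the same way. All 7 had a scaled log2 difference above 0 in HF_Sugar against NF (median 0.60) and 0 passed, although H2-DMa averaged 43.2 RPKM in HF_Sugar and 43.6 RPKM in NF, with Ciita, the class II transactivator and a relative of Nlrc5, at 6.02, 3.85 and 9.84 RPKM in HF_Sugar against 0.776, 4.25 and 3.20 RPKM in NF (1.04 ± 0.45). H2-Eb1 and H2-DMb1 differed by 0.75 ± 0.60 and 0.80 ± 0.79. Their summed RPKM was 2446, 2214 and 3059 in HF_Sugar, 624, 1429 and 1583 in HF, 678, 1397 and 2873 in NF_Sugar, and 499.9, 3079 and 2867 in NF libraries. It was thus lowest in NF replicate 1 and high in NF_Sugar replicate 3 and NF replicate 2, which were also the lowest and the 2 highest libraries for the class I members among mice without the Western diet. NF replicate 3 was high for class II and near the mean for class I. In HF_Sugar against HF, all 7 class II genes had a log2 difference above 0. Their median was 1.09, against 0.42 over the class I members. Of the 7, 6 had all HF_Sugar libraries above all HF libraries, as did 4.69% of all genes tested, and 0 passed.

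Markers of other cell types are given beside this, and their part in the class I values was not tested. In HF_Sugar against NF, the summed RPKM of the 3 pan-leukocyte genes was 21.3 to 38.8 against 19.0 to 31.9, that of the 8 macrophage and dendritic cell genes 89.2 to 182 against 91.1 to 119, and that of the 7 B cell genes 30.4 to 52.6 against 27.4 to 31.9. Most of the macrophage and dendritic cell sum was Lyz2, at 107, 73.2 and 158 RPKM in HF_Sugar. Of that list 6 genes could be tested, and all 6 had a log2 difference above 0 (median 0.19). All 7 B cell genes also had a log2 difference above 0 (median 0.35). Of these, 4 had all HF_Sugar libraries above all NF libraries, as did 7.21% of all genes tested. For the 12 T cell and intraepithelial lymphocyte genes the summed RPKM was 27.1 to 46.6 against 15.4 to 50.4, and 6 of the 12 had a log2 difference above 0 and 6 below (median -0.017). The smallest p of that list was that of Cd8a, the co-receptor chain that binds class I, which stood at 1.91, 1.80 and 2.35 RPKM in HF_Sugar against 0.854, 1.18 and 1.20 RPKM in NF (0.51 ± 0.17). Cd8b1 differed by 0.0064, and the T cell receptor complex genes Cd3d, Cd3e and Cd3g by -0.29, -0.14 and -0.18. Sums of the 7 epithelial genes were 3952 to 4692 in HF_Sugar and 4945 to 5927 in NF, which did not overlap. Singly, 3 of the 7 had all HF_Sugar libraries below all NF libraries, as did 2.97% of all genes tested. Smooth muscle and blood endothelium summed to 404 to 745 and 7.03 to 9.27 RPKM in HF_Sugar and to 432 to 786 and 5.19 to 6.02 RPKM in NF, and the endothelial sums did not overlap either, being higher in HF_Sugar. No marker of these lists was at 0 in all 12 libraries, and of the fat tissue genes Adipoq was listed at 0 in NF_Sugar replicate 1. In HF_Sugar against HF, 11 of the 12 T cell and intraepithelial lymphocyte genes had a log2 difference above 0 (median 0.30), and 0 separated upward. So did 3 of 3 pan-leukocyte genes (median 0.32), 5 of 6 testable macrophage and dendritic cell genes (0.24) and 5 of 7 B cell genes (0.08). All 7 epithelial genes were below 0 there (median -0.11). None of these genes passed.

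By the rule for names, the leading genes of those lists in HF_Sugar against NF were Cd8a, Cd4 (0.31 ± 0.17) and Klrd1 (-0.34 ± 0.18) for T cells, Cd22 (0.64 ± 0.18) and Pax5 (0.31 ± 0.12) for B cells, and Adgre1 (0.30 ± 0.14), Itgax (0.25 ± 0.17) and Csf1r (0.16 ± 0.17) for myeloid cells. For leukocytes in general they were Ptprc (0.39 ± 0.14), Coro1a (0.30 ± 0.33) and Laptm5 (0.08 ± 0.22), and for endothelium Cdh5 (0.33 ± 0.11), Pecam1 (0.26 ± 0.12) and Kdr (0.23 ± 0.11). Epithelial keratins were led by Krt8 (-0.50 ± 0.16), Krt18 (-0.42 ± 0.16) and Krt20 (-0.52 ± 0.25), and ileal bile acid genes by Slc51b (-0.53 ± 0.27), Slc51a (-0.35 ± 0.21) and Fgf15 (0.77 ± 0.79). Myh11 (-0.61 ± 0.40), Acta2 (-0.36 ± 0.33) and Tagln (-0.30 ± 0.34) led smooth muscle, and Cfd (-1.73 ± 1.22) and Adipoq (-0.76 ± 0.83) were the testable fat genes. None of these passed, at limma adjusted p of 0.961 or more.

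Of the 10 other genes whose levels were most like the mean log2 level of the members over the 12 libraries, 9 are named here with their Pearson r: Gbp7 (0.960), Ubd (0.953), Herc6 (0.944), Cxcl9 (0.931), Zbp1 (0.928), Ifi47 (0.928), Igtp (0.928), H2-Aa (0.918) and Itgax (0.917). This is a description of these libraries, chosen by the likeness itself. Ubd, which encodes the ubiquitin-like protein FAT10, ranged widely, at 10.1, 10.4 and 39.97 RPKM in HF_Sugar, 2.38, 3.58 and 4.62 in HF, 2.62, 3.08 and 26.0 in NF_Sugar, and 2.48, 25.3 and 12.6 in NF libraries. It was high in HF_Sugar replicate 3, NF_Sugar replicate 3 and NF replicate 2.

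**Figure D5:**
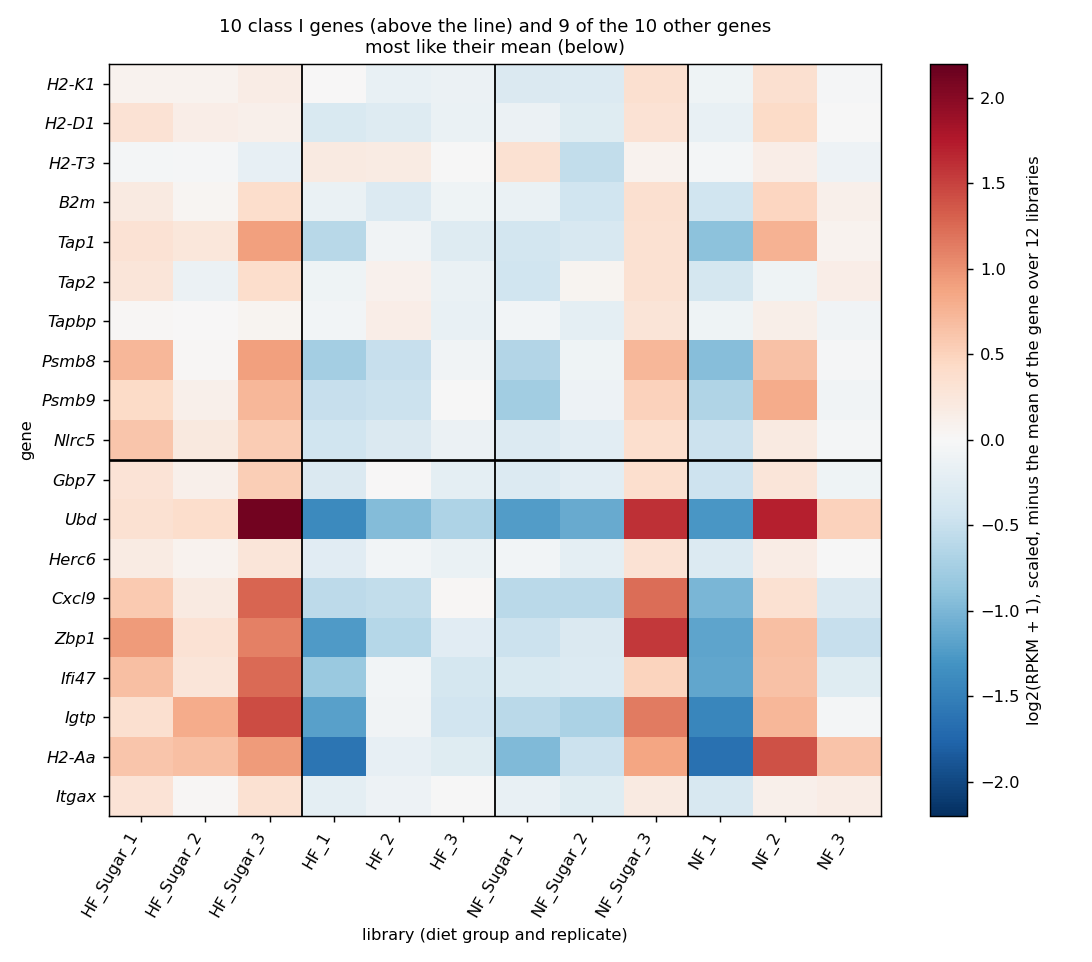
Scaled log2(RPKM + 1) minus the mean of each gene over 12 libraries (color, blue low and red high) for the 10 class I genes (rows above the line) and 9 of the 10 other genes most like their mean (rows below), with libraries in columns by diet group and replicate. HF_Sugar replicate 3, NF_Sugar replicate 3 and NF replicate 2 are red and NF replicate 1 is blue in most rows, and the row of H2-T3 departs from the others.

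Mice of the same diet differed widely in their class I levels. Averaged over the 10 members, scaled log2 levels deviated from the means of the genes by 0.29, 0.07 and 0.40 in HF_Sugar, by -0.27, -0.17 and -0.12 in HF, by -0.29, -0.25 and 0.37 in NF_Sugar, and by -0.42, 0.38 and -0.0034 in NF libraries. HF_Sugar replicate 3 held the highest value of all 12 for 6 of 10 members, and NF replicate 1 the lowest for 4 of 10. The 3 HF libraries lay close together and below 0, as did 2 of 3 NF_Sugar libraries.

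Some member values carry limits of annotation. H2-K1 and H2-D1 are close paralogs of each other and of the Qa genes, and how reads shared by them were counted is not given in the sources used here. Psmb9 and Tap1 (chromosome 17, 34181987 to 34187764 and 34187553 to 34197225, GENCODE on build GRCm38) overlap head to head, Psmb8 (34197721 to 34201454) and Tap2 (34203527 to 34216321) both overlap the antisense gene Gm20496 (7.46 RPKM on average), and Tapbp (33915899 to 33929292) overlaps Zbtb22 and Gm19412. Nlrc5 (chromosome 8, 94434356 to 94527272) overlaps 9330175E14Rik on the other strand (0.152 RPKM). Whether counting used strand is not given either, so reads of such partners cannot be told apart.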

How the data were processed

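Ileal RNA of 12 mice was sequenced on the Ion Proton, and per the labels and the methods of the study the authors used STAR within Partek Flow, with mm10 as the genome. The deposited values are RPKM, per the authors' normalization, with depth and counting strand not given. The 12 per-sample files were identical to their columns of the series table. No count test was the main test, and limma-voom on recovered reads was an alternative. Depth came from the spacing of low RPKM values. RPKM were scaled by TMM factors (trimmed mean of M values) from tested genes (0.5 RPKM or more in 3 libraries), and log2(RPKM + 1) was fitted with limma 3.58.1 (R 4.3.3, trend), adjusted by Benjamini-Hochberg over 17662 genes. Permutation tests were two-sided (scipy 1.17.1, numpy 2.4.6, pandas 2.3.3, matplotlib 3.10.9, Python 3.11.15). The table's 26 bare numbers (up to 0.135% of a library) were left out.

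Members and lists were chosen with earlier results of these data known. Named were the 10 members, the 3 genes of lowest p (HF_Sugar against NF) in every other list, and the 10 genes most like the members, predicted gene models passed over. Of these, 2 genes are not reported here. Within-group libraries were separate mice. Deviations from group means of libraries with the same replicate number correlated at 0.134 to 0.557 between HF_Sugar and HF. The correlations were 0.174 to 0.512 between HF_Sugar and NF and -0.446 to -0.0384 between HF_Sugar and NF_Sugar. The labels give no pairing of mice between groups, and the part of the 4 libraries that stand apart in these correlations was not tested. The exact permutation tests took libraries as unpaired. The limma fit with the replicate block used the replicate number in all 4 groups, NF_Sugar included, and is an alternative fit rather than a model of paired mice. Alternatives covered scaling, pseudocount, filter, replicate block, the 4 libraries that stand apart, limma-voom and each library left out. The fit was tested on simulated data.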

Additional observations from a re-analysis of the deposited data

How the results depend on the processing

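No member passed an adjusted p of 0.05 in any pair of groups under any alternative, the lowest being 0.458. Over 50 member values, 13 of 545 alternatives and 39 of 600 fits without 1 library turned the sign, all of values that did not pass. Without the 4 libraries that stand apart, HF against NF gave 0.036 for B2m, -0.00810 for Tap2, 0.063 for Psmb8 and 0.11 for Psmb9. NF_Sugar against NF gave 0.072 for H2-K1, 0.10 for H2-D1, 0.12 for B2m, 0.39 for Tap1 and 0.56 for Psmb9, and HF_Sugar against NF_Sugar gave 0.11 for H2-T3. Tapbp in HF against NF was 0.046 as deposited, 0.00076 without a filter and 0.017 at a mean of 5 RPKM or more, a filter that removes Nlrc5. Nlrc5 with H2-T3 had r = 0.084 after the group means were taken off. The causes were not tested.

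Counts of called genes were 5, 4, 4 and 3 without a filter in HF_Sugar, HF and NF_Sugar against NF and in the F test. In HF_Sugar against HF the 1 called gene became 0 with pseudocounts 0.1 and 0.5, no filter, a mean of 5 RPKM or more, the 2 groups alone, without the 4 libraries, with their cluster as covariate, by limma-voom, and at 2-fold and adjusted p under 0.01. Leaving out 1 library gave 0 to 2 calls there and in the F test, and 0 to 1 in HF_Sugar, HF and NF_Sugar against NF, HF_Sugar against NF_Sugar, pooled sugar and the interaction. Members above all libraries of the other group became 6 in HF_Sugar against NF and 1 in HF_Sugar against NF_Sugar without the 4 libraries, and 0 in HF against NF after scaling, alternatives chosen after seeing the data.

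With the replicate number as a block, limma gave Nlrc5 0.57 (adjusted p = 0.958) in HF_Sugar against NF and 0.75 (adjusted p = 0.881) against HF, the count of called genes stayed at 0 and 1, and the block changed no call.

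Leaving out 1 library at a time gave, in HF_Sugar against NF, -0.053 to 0.16 for H2-K1, -0.0096 to 0.28 for H2-D1 and -0.086 to 0.37 for B2m, the low end of each being without NF replicate 1. In HF against NF it gave -0.74 to 0.086 for Tap1, -0.75 to 0.0404 for Psmb8 and -0.70 to 0.039 for Psmb9, positive without NF replicate 2, and -0.068 to 0.19 for Tap2 and -0.10 to 0.0604 for Tapbp. In NF_Sugar against NF the ranges were -0.28 to 0.057 for H2-D1, -0.23 to 0.20 for H2-T3, -0.37 to 0.087 for B2m, -0.57 to 0.27 for Tap1, -0.068 to 0.31 for Tap2, -0.12 to 0.13 for Tapbp, -0.31 to 0.48 for Psmb8, -0.49 to 0.25 for Psmb9 and -0.16 to 0.20 for Nlrc5. Tapbp ran over -0.011 to 0.14 in HF_Sugar against HF. In HF_Sugar against NF_Sugar, H2-T3 ran over -0.30 to 0.14, Tap2 over -0.027 to 0.35 and Tapbp over -0.085 to 0.17. Nlrc5 stayed between 0.39 and 0.72 in HF_Sugar against NF and between 0.67 and 0.87 against HF. Of its relations, that with H2-K1 was lost in the 8 libraries, and that with Tapbp passed as deposited (r = 0.588, adjusted permutation p = 0.0496). After group means were taken off, Tapbp had r = 0.607 (adjusted permutation p = 0.0406, too small because deviations within a group are not free). With 3 mice a group, the SE of a log2 difference was 0.18 in the median gene.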
